A study of Rickenella mellea with 14 samples.

Results

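In the moss-dwelling mushroom Rickenella mellea, 156 gene models stood high in both the young fruiting body and the mature cap and low in both the primordium and the mature stipe. They were 1.01% of the 15477 gene models in the deposited expression matrix, and the files hold 17139 models in all. The rule worked on log2 RPKM (reads scaled to gene length and to library total times a scaling factor, TMM, on a log scale). It asked that the young fruiting body and cap means each lie at least 1.5 above the primordium and the stipe means, which is 2.83-fold, and that every young fruiting body and cap library lie above every primordium and stipe library. It also asked that the primordium and stipe means lie less than 1 apart, that the young fruiting body and cap means lie less than 1 apart, and that mycelium not be the highest mean. The values in these 4 field-collected groups therefore chose the members and are given below as a description, without a test.

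The study sequenced polyadenylated RNA from 14 samples in 5 groups. Vegetative mycelium (n = 3) was grown on Fries agar. The field supplied the other groups, which were primordia (n = 3), young fruiting bodies (n = 3) and, from mature fruiting bodies, caps (n = 3) and stipes (n = 2). The primordium group joins 1 stage 1 library, replicate 2, from shafts about 1 mm tall that showed no cap initial, and 2 stage 2 libraries, replicates 1 and 3, from structures of 2 to 3 mm with a small one. Young fruiting bodies were 5 to 15 mm tall and mature ones 20 to 32 mm, and only the mature ones were divided into cap and stipe. The labels give the strain SZMC22713 for all groups, the field collections included. They do not say how many individuals a sample holds, so the spread behind each p-value is that between samples and may be technical.

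In a mushroom the stipe carries the cap upward, largely by elongation of its cells, and the underside of the cap bears the spore-forming layer, in which nuclei fuse, meiosis takes place and spores are made. The primordium is the compact knot of hyphae from which both parts arise. A whole young fruiting body thus holds cap and stipe tissue together, in proportions that the labels do not give. Gene models are called here by the number in their Ricmel1 identifier. The files pair no identifier with a product name, so no function is given for any member and none are grouped by pathway.

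Mycelium and primordium libraries held 13.6 to 18.4 units of 1e6 reads, and the other 8 held 21.5 to 54.6. Mycelium libraries shared 1 flow cell and field libraries the other. Wherever mycelium is compared, the flow cell, the agar culture and the stage thus cannot be told apart. The scaling factors applied between libraries (TMM) were 0.573 to 0.786 in primordia and 0.896 to 1.35 elsewhere. With library size alone as the scaling, the median difference of all genes moved by 0.55 on the log2 scale for the young fruiting body against the primordium, by 0.90 for the cap against the primordium, by 0.20 for the cap against the stipe and by 0.14 for the stipe against the young fruiting body. Against mycelium it moved by -0.88 for the primordium, -0.18 for the stipe, -0.33 for the young fruiting body and 0.02 for the cap.

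The members took up a larger part of the sequenced RNA in young fruiting bodies and caps than in any other library. Their share of reads was 2.58%, 2.39% and 3.08% in mycelium replicates 1 to 3. In primordia it was 0.302% in the stage 1 library and 0.491% and 0.787% in stage 2 replicates 1 and 3. It was 6.59%, 4.87% and 5.33% in young fruiting body replicates 1 to 3 and 3.98%, 4.22% and 5.48% in cap replicates 1 to 3. The stipe libraries gave 1.09% in replicate 1 and 0.516% in replicate 4. The lowest young fruiting body or cap library was thus above the highest mycelium library, and every mycelium library was above every primordium and stipe library. The tissue is bulk RNA, so fewer cells of a type and less RNA per cell cannot be told apart. Over the members, the median difference of means on the log2 scale was 2.72 for young fruiting body against primordium, 2.45 for cap against primordium, 2.32 for cap against stipe and -2.44 for stipe against young fruiting body. Over all genes of the matrix the same medians were 0.35, 0.36, -0.05 and 0.08.

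The gap, the distance from the lower of the young fruiting body and cap means to the higher of the primordium and stipe means, had a median of 1.97 on the log2 scale among the members, and 73 members reached 2 and 4 reached 3. Members divided by level. Of the 156, 65 had a mean of at least 8 on the log2 RPKM scale over the young fruiting body and cap means, which is 256 RPKM, and 91 lay below that. The value 8 was chosen after the levels were seen, at the sparse stretch of a distribution with 23 members between 5 and 6, 10 between 7 and 8 and 27 between 9 and 10. These 65 abundant members carried most of the reads of the set, 4.52% to 5.98% of each young fruiting body library and 3.36% to 4.74% of each cap library.

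Most of the abundant members were higher in the young fruiting body than in the cap. Their median level by library was 1160, 900.0 and 885 RPKM in young fruiting body replicates 1 to 3, and 522, 587 and 687 RPKM in cap replicates 1 to 3. It was 425, 313 and 497 RPKM in mycelium replicates 1 to 3. In primordia it was 75.6 RPKM in the stage 1 library and 152 and 180.0 RPKM in stage 2 replicates 1 and 3, and in stipes it was 173 RPKM in replicate 1 and 79.0 RPKM in replicate 4. The cap mean was below the young fruiting body mean in 57 of the 65, with a median log2 difference of -0.83, and above it in 8. Among the 91 other members the cap mean was above the young fruiting body mean in 55 and below it in 36, with a median log2 difference of 0.16. The stipe mean lay above the primordium mean in 23 of the 65 abundant and 77 of the 91 other members. The median log2 difference of stipe minus primordium was -0.10 in the abundant and 0.45 in the other members. Over all genes of the matrix it was 0.34, so the other members lay near the shift of all genes. For cap minus young fruiting body the median over all genes was -0.01. In the members the rule held each of these differences under 1, so their size is bounded by the choice of members.

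**Figure D1:**
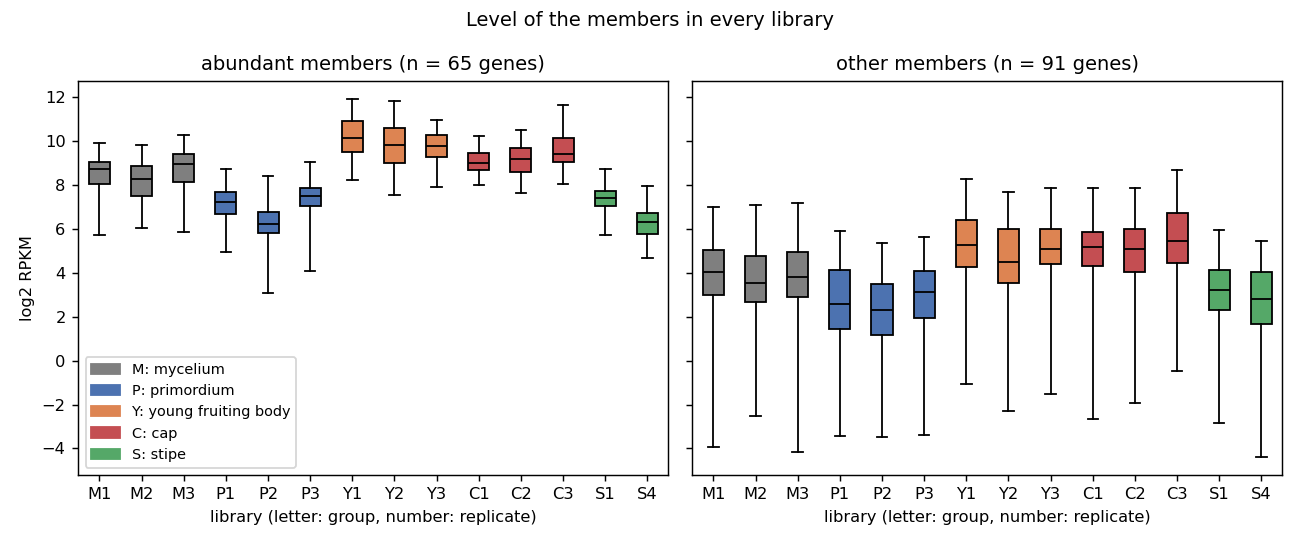
Box plots of log2 RPKM in each of the 14 libraries for the 65 abundant members (left) and the 91 other members (right), with boxes from the lower to the upper quartile, a line at the median and whiskers to the lowest and highest gene. Young fruiting body and cap libraries stand highest, primordium and stipe libraries lowest, and mycelium libraries between them, in both panels.

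The 6 members with the highest mean level over the young fruiting body and cap libraries were all short models of 387 to 771 bases with all reads unique to them. Values of single libraries are given by ascending replicate number, except that in primordia the stage 1 library comes before replicates 1 and 3. Gene model 779642 had 842, 808 and 1238 RPKM in mycelium replicates 1 to 3, and in primordia 218 RPKM at stage 1 and 382 and 529 RPKM at stage 2. It had 3914, 3657 and 2040 RPKM in young fruiting bodies, 1103, 1239 and 3204 RPKM in caps, and 429 and 250.0 RPKM in stipe replicates 1 and 4. The young fruiting body and cap libraries did not overlap the primordium and stipe libraries, which the rule asked, while cap replicate 1 lay within the range of the mycelium libraries.

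Gene model 711453 had 927, 738 and 1142 RPKM in mycelium and 165, 299 and 293 RPKM in primordia. It had 3860, 3047 and 1896 RPKM in young fruiting bodies, 888, 1204 and 2777 RPKM in caps and 313 and 175 RPKM in stipes. As in 779642, young fruiting body replicate 3 and cap replicate 3 stood apart from the other libraries of their groups, the first low and the second high. Gene model 780704 was steadier within caps, with 1054, 1101 and 1844 RPKM, against 3055, 2678 and 1774 RPKM in young fruiting bodies. Its stipe libraries, at 391 and 143 RPKM, differed by more than its primordia, at 155, 247 and 275 RPKM. Mycelium gave 980, 920 and 1259 RPKM for this model, a range that overlapped that of caps.

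The other 3 of these 6 followed the same course, and each group mean below is followed by its SD. Gene model 894011 averaged 920 ± 195 RPKM in mycelium (n = 3), 264 ± 119 in primordia (n = 3), 2505 ± 592 in young fruiting bodies (n = 3), 1391 ± 485 in caps (n = 3) and 232 ± 114 in stipes (n = 2). Gene model 761179 averaged 514 ± 112 RPKM in mycelium, 196 ± 69.8 in primordia, 2284 ± 584 in young fruiting bodies, 1196 ± 558 in caps and 197 ± 99.1 in stipes. Gene model 789133 averaged 686 ± 166 RPKM in mycelium, 222 ± 95.6 in primordia, 2120 ± 602 in young fruiting bodies, 1269 ± 452 in caps and 164 ± 80.8 in stipes. In all 3 the stage 1 library was the lowest primordium and stipe replicate 4 the lower stipe.

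The 6 members with the largest gap differed widely in level, with means over young fruiting body and cap between 0.82 and 10.52 on the log2 RPKM scale. Gene model 796790 had the widest gap, 4.02 on the log2 scale, but it rests on few reads. It had 2, 1 and 0 reads in mycelium replicates 1 to 3, no read in any of the 3 primordia, 25, 17 and 48 reads in young fruiting bodies, 6, 77 and 196 reads in caps, and 2 and 0 reads in stipe replicates 1 and 4. A count of 0 allows up to 3 reads by counting error alone, which for this gene is 0.643 to 0.737 RPKM in the primordia. Cap replicate 1, the deepest library, held 0.203 RPKM, below that limit, so its place above the primordia is not detectable at this depth. Gene model 784668 had 0, 30 and 10 reads in mycelium, 0 reads at stage 1 and 40 and 28 at stage 2, 1155, 362 and 558 in young fruiting bodies, 771, 352 and 929 in caps and 45 and 21 in stipes. Its reads were thus at 0 in 1 mycelium library and in the stage 1 primordium, while all 6 young fruiting body and cap libraries held 352 or more. In RPKM the stage 1 primordium stood at 0.0907, from the 0.5 reads added to a count of 0. The stage 2 primordia stood at 8.42 and 5.39 RPKM, above both stipes, at 2.49 and 2.03 RPKM. The size of its gap, 3.565, and the closeness of its primordium and stipe means thus depend on 1 library without a read. How far they depend on it was not tested.

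Gene model 746790, with a gap of 3.38, had 62.2, 98.5 and 215 RPKM in mycelium and 8.57, 48.3 and 17.1 RPKM in primordia. It had 417, 212 and 629 RPKM in young fruiting bodies, 522, 202 and 637 RPKM in caps and 52.6 and 25.7 RPKM in stipes. Gene model 788089, with a gap of 3.09, was the only one of these 6 in which every cap library stood above every young fruiting body library. It had 314, 93.7 and 201 RPKM in mycelium, 10.2, 31.4 and 59.4 RPKM in primordia, 497, 230.0 and 485 RPKM in young fruiting bodies, 712, 596 and 661 RPKM in caps and 57.6 and 34.6 RPKM in stipes. Gene model 830842 (gap 2.90) held 15.7, 7.43 and 13.2 RPKM in mycelium, 2.23, 7.17 and 3.77 RPKM in primordia, 56.0, 37.3 and 47.3 RPKM in young fruiting bodies, 34.0, 34.6 and 53.7 RPKM in caps and 6.90 and 4.14 RPKM in stipes. Here every mycelium library lay above the primordium and stipe libraries, by little, and under every young fruiting body and cap library. Gene model 788402 (gap 2.78) averaged 765 ± 208 RPKM in mycelium, 150.5 ± 70.5 in primordia, 2101 ± 679.8 in young fruiting bodies, 1141 ± 515 in caps and 166 ± 82.0 in stipes (SD, n = 3 in each group and 2 in stipes).

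**Figure D2:**
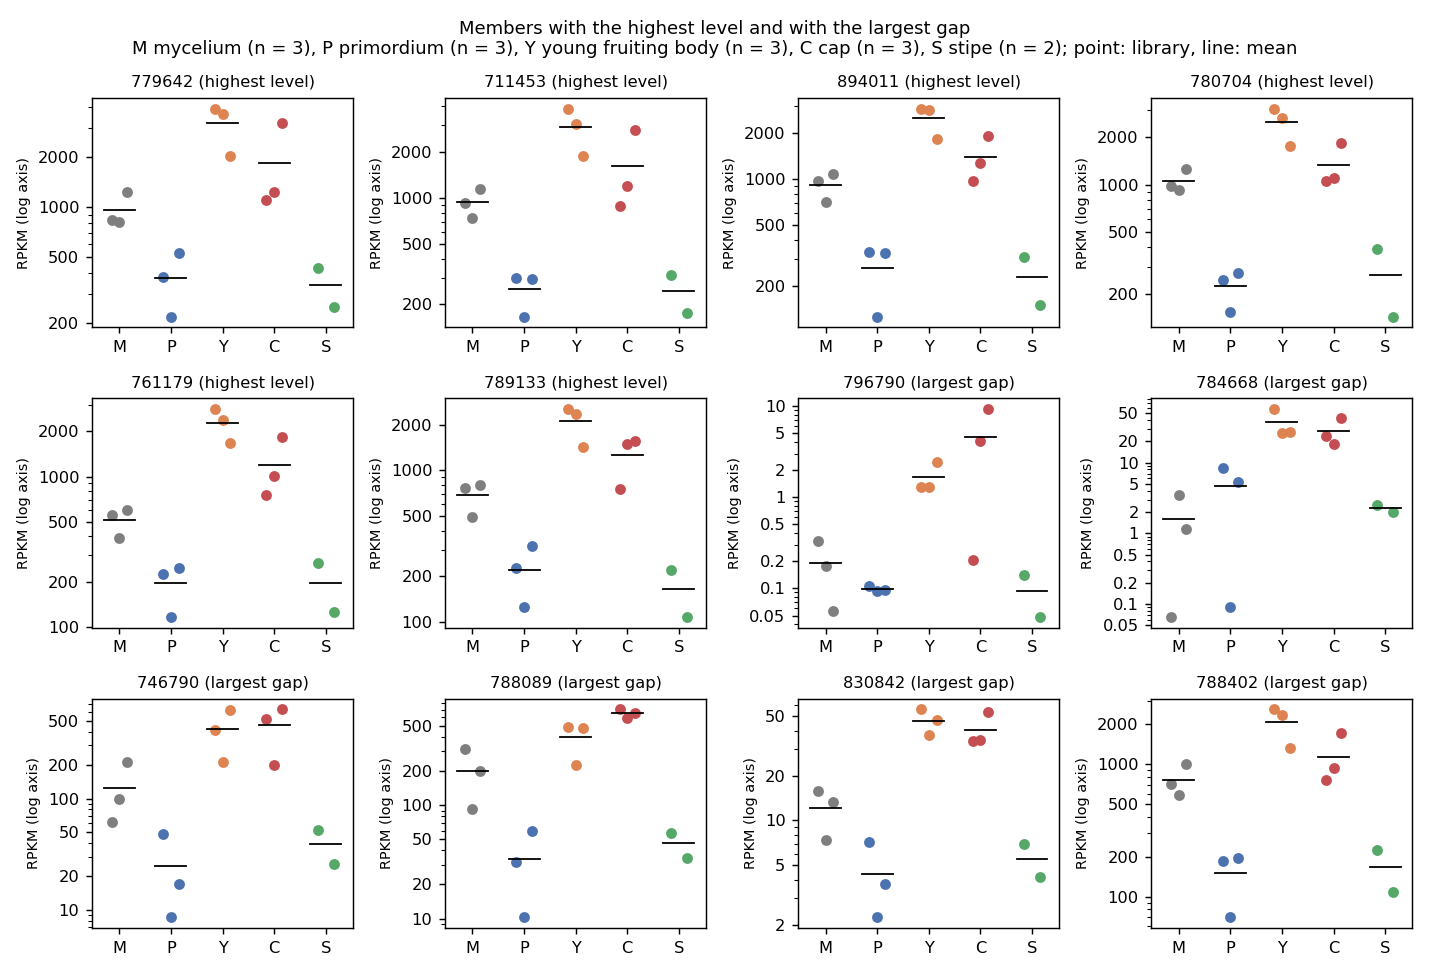
RPKM on a log axis in each library (points, replicates in ascending order from left to right) and the group mean (line) for the 6 members with the highest level and the 6 with the largest gap. In every panel the young fruiting body and cap points lie above the primordium and stipe points, as the rule required, while the place of mycelium differs between genes.

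At the edge of the rule, the members with the smallest gap were 765349, at 1.501, and 264842, at 1.506. Only this threshold was missed by 629 genes, and the nearest of these were 893580, at 1.496, and 722166, at 1.494. Gene model 765349 averaged 14.1 ± 1.81 RPKM in mycelium, 24.7 ± 7.83 in primordia, 108 ± 23.6 in young fruiting bodies, 108 ± 26.5 in caps and 37.3 ± 2.04 in stipes. Gene model 893580, outside, averaged 43.7 ± 13.8 RPKM in mycelium, 32.7 ± 13.3 in primordia, 88.2 ± 20.4 in young fruiting bodies, 90.5 ± 19.3 in caps and 27.9 ± 5.05 in stipes (SD, n = 3 in each group and 2 in stipes). The conditions narrowed the genes stepwise. A gap of 1.5 was met by 390 genes and, with no overlap of libraries, by 353. Of these 353, 199 had primordium and stipe less than 1 apart, 282 had young fruiting body and cap less than 1 apart, and 327 had a group other than mycelium highest. All conditions but the gap were met by 785 genes.

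Within each group the members tended to share an order of libraries. The rule set no such order, but the values of these same libraries chose the members. The choice can favour some orders over others, so the counts below are not independent of it. Young fruiting body replicate 2 was below replicate 1 in 156 of 156 members, with a median log2 difference of -0.52, against 54.2% of all genes and a median of -0.07, and replicate 3 was below replicate 1 in 119, against 50.0% of all genes. Cap replicate 1 was below cap replicate 3 in 123 members, against 48.1% of all genes, and cap replicate 2 was below it in 132, against 50.6%. Among the low groups, stipe replicate 4 was below stipe replicate 1 in 139 members, against 50.2% of all genes, with a median difference of -0.75 against 0. The stage 1 primordium was below stage 2 replicate 1 in 126 members (54.9% of all genes) and below replicate 3 in 135 (52.6% of all genes), by medians of -0.80 and -1. Of the 6 young fruiting body and cap libraries, the highest was young fruiting body replicate 1 for 78 members and cap replicate 3 for 47. Of the 5 primordium and stipe libraries, the lowest was the stage 1 primordium for 84 members and stipe replicate 4 for 39. No test was made of these orders, which rest on single libraries, and genes that move together are not independent. The number chosen by the rule was 107 without cap replicate 3 or without stipe replicate 4, and 205 without young fruiting body replicate 2.

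As a reading in libraries that the choice had not used, the rule was applied again without replicate 1 of the primordium, young fruiting body, cap and stipe, which chose 220 genes, 114 of them among the 156. In the replicate 1 libraries left aside, both the young fruiting body and the cap were above both the primordium and the stipe for 213 of the 220, or 96.8%, against 24.0% of all genes. Both were at least 1.5 above for 85, or 38.6%, against 2.24% of all genes. The median gap there was 1.35 on the log2 scale, and -0.81 over all genes. Taken pair by pair, the median difference was 2.94 for young fruiting body against primordium, 1.97 for cap against primordium, 2.17 for young fruiting body against stipe and 1.47 for cap against stipe, where the medians of all genes were 0.35, 0.34, -0.05 and 0. The direction was therefore present in the libraries left aside for nearly all of the genes chosen, at a size below 1.5 for most. With 1 library in each group there is no replicate check, and the scaling factors of the matrix were computed with all libraries. The choice of the 220 itself used stipe replicate 4 as the only stipe library. For primordium it used the stage 1 library and stage 2 replicate 3. Over all genes, the deviations of cap replicate 1 and stipe replicate 1 from their group means correlated at -0.301, and the part of this in the reading was not tested.

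**Figure D3:**
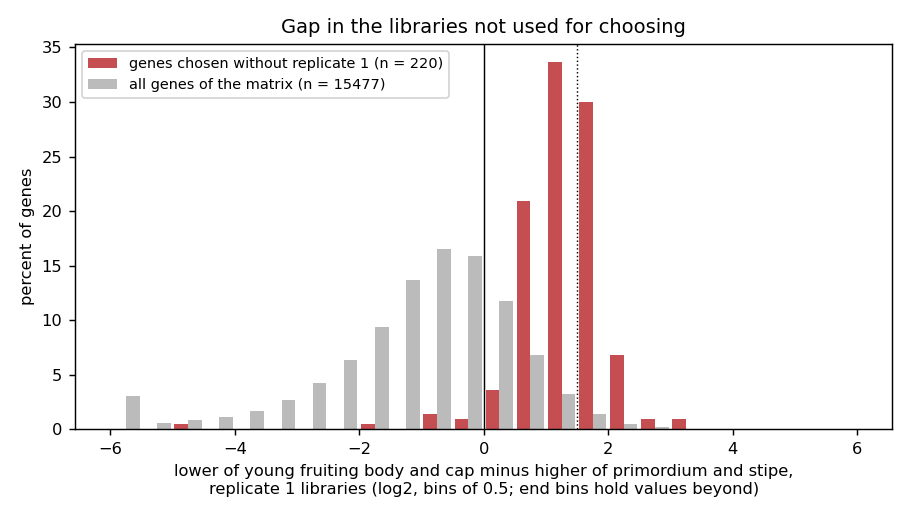
Percent of genes by the gap in replicate 1 libraries, in log2 bins of 0.5, for the 220 genes chosen without those libraries and for all 15477 genes of the matrix. The chosen genes centre on 1.35 and all genes on -0.81, and the dotted line marks 1.5.

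The reverse pattern, with primordium and stipe high and young fruiting body and cap low under the same conditions turned round, was met by 31 genes. The members' median level over young fruiting body and cap was 6.58 on the log2 RPKM scale, and that of the reverse pattern over primordium and stipe was 4.64. Chosen without replicate 1, the reverse pattern held 55 genes, of which 36, or 65.5%, kept their direction in the replicate 1 libraries, against 18.4% of all genes. The difference there was at least 1.5 for 14 of the 55, or 25.5%, against 1.36% of all genes. The difference between these sets was not tested.

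Mycelium served in the rule only as a group that may not be highest. Choosing low primordium and stipe values and high young fruiting body and cap values favours a mycelium mean between them. The counts of its place are thus a description, not independent of the rule, and were not made over all genes. The mycelium mean lay between the low and the high group means in 135 of the 156 members. In 8 it was above the lower of the young fruiting body and cap means, and in 13 it was at or below the higher of the primordium and stipe means. In 110 members every mycelium library was above every primordium and stipe library, as in 19.5% of all genes of the matrix, and the choice of members for low primordium and stipe values favours that order. By level, 67 members were high in mycelium (less than 1 log2 unit below the average of the young fruiting body and cap means, or above it). Of the rest, 42 were low (less than 1 above the average of the primordium and stipe means, or below it). The other 47 were in between. Of the 65 abundant members, 32 were high, 24 in between and 9 low.

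**Figure D4:**
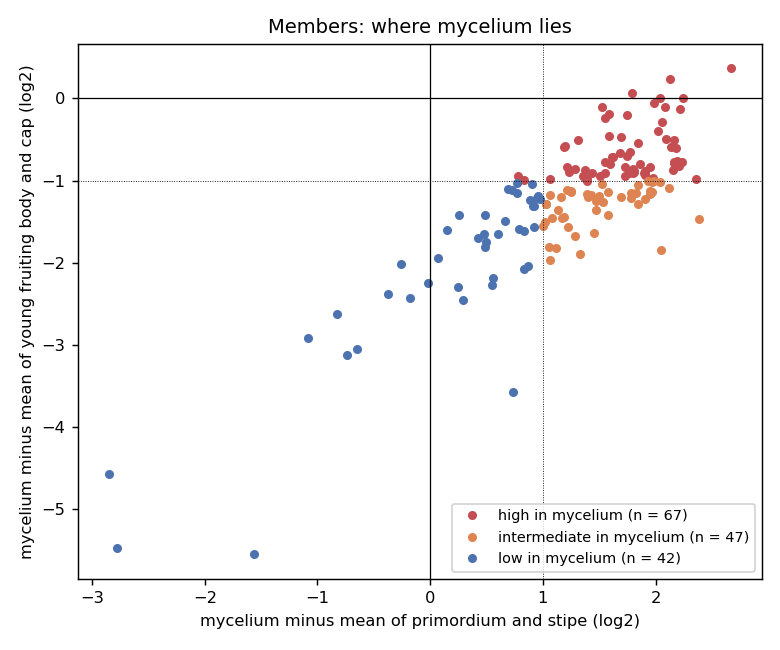
Each of the 156 members by its mycelium mean minus the average of the primordium and stipe means (horizontal, log2) and minus the average of the young fruiting body and cap means (vertical, log2), coloured by class, with dotted lines at the class limits. Most members lie to the right of 0 and under 0, between the low and the high groups.

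Mycelium was compared with each field group by the quasi-likelihood test of edgeR on read counts over 15559 genes, of which 154 were members, and calls needed both a 2-fold change and an adjusted p (Benjamini-Hochberg, over all genes tested) below 0.05. The 2 members not tested, 264842 and 568868, had too few reads. In primordia 101 members were lower than in mycelium and 1 was higher, where 23.6% of all genes were lower and 20.1% higher. With each library's trend on length removed, 65 members were lower and 3 higher, and shares of all genes were not counted under that setting. Without that removal, the median log2 change was -1.42 over the members and -0.15 over all genes. In stipes 69 members were lower and 3 higher, where 10.2% of all genes were lower and 13.3% higher, with a median of -1.33 over the members and 0.03 over all genes. The rule chose the members for low primordium and stipe values, which favours lower calls, so these counts are not independent of it. With stipe replicate 1 as the only stipe library 5 members were lower and 1 higher, and with stipe replicate 4 as the only one 69 were lower and 1 higher. In both fits the lone library is assumed to vary like those of the other groups. Without mycelium replicate 3 the stipe count was 43 lower and 2 higher. Shares of all genes were not counted under any of these settings.

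The rule also bars mycelium from being highest, so counts in the high groups are a description. It further holds the young fruiting body and cap means less than 1 apart. The mycelium mean thus cannot lie 1 or more above either of them on the log2 scale of the matrix. A call of lower at 2-fold was nearly barred in advance, so the counts of 0 lower follow from the rule. In young fruiting bodies 94 members were higher than in mycelium and 0 lower, where 15.7% of all genes were higher and 10.8% lower. In caps 61 were higher and 0 lower, where 14.3% of all genes were higher and 11.1% lower. No member was lower at an unadjusted edgeR p under 0.05 in either group, and the rule disfavours such values too. DESeq2 and limma-voom also called 0 lower in each, under the same bar. The young fruiting body count was 45 without mycelium replicate 2, 48 without young fruiting body replicate 1, 60 without young fruiting body replicate 3 and 47 with library size alone as the scaling. The cap count was 39 without mycelium replicate 2 or without cap replicate 3. Of the 154, 65 were lower than mycelium in both primordium and stipe, where 7.46% of all genes were, and 42 were higher in both young fruiting body and cap, where 9.67% of all genes were. No member was called in all 4 in these directions, and 0.00% of all genes were. Members high in mycelium held 62 of the 101 calls lower in primordium and 2 of the 61 calls higher in cap, and members low in mycelium held 2 and 39 of these calls, as the classes, which use the same values, would have it.

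The members with the smallest p for a lower level in primordium than in mycelium were moderate in level. Gene model 748338 had 2.41 RPKM at stage 1 and 3.72 and 4.31 RPKM at stage 2, against 17.5, 18.2 and 25.5 RPKM in mycelium, which is -2.56 ± 0.32 as a log2 change (SE), with an edgeR adjusted p = 5.3e-05. Its young fruiting bodies held 39.1, 22.9 and 29.3 RPKM and its caps 16.5, 17.0 and 15.7 RPKM, so every cap library was below every mycelium library. Gene model 740304 had 19.4, 15.8 and 30.0 RPKM in primordia, against 80.8, 72.2 and 88.4 RPKM in mycelium, which is -1.89 ± 0.26 (SE) on the log2 scale, with an edgeR adjusted p = 0.000109. Its caps, at 87.4, 71.0 and 86.3 RPKM, covered nearly the same range as mycelium, and its stipes, at 33.2 and 22.5 RPKM, overlapped the primordia.

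Members with the highest mycelium level relative to primordium and stipe included 721917 and 773496, besides 788089 and 788402 above. Gene model 721917 averaged 7.12 ± 2.20 RPKM in mycelium, 1.02 ± 0.55 in primordia, 7 ± 1.36 in young fruiting bodies, 5.20 ± 4.44 in caps and 1.36 ± 0.78 in stipes, with 3, 4 and 9 reads in the primordia. Gene model 773496 averaged 3.72 ± 1.83 RPKM in mycelium, 0.61 ± 0.04 in primordia, 2.72 ± 0.15 in young fruiting bodies, 4.14 ± 1.07 in caps and 0.99 ± 0.80 in stipes (SD, n = 3 in each group and 2 in stipes). Both were called lower in primordium than in mycelium, by log2 changes of -2.91 ± 0.75 and -2.65 ± 0.56 (SE; edgeR adjusted p = 0.00653 and 0.00214).

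At the other end, 9 members had a mycelium mean below both the primordium and the stipe means. Gene model 637590 had 0.29, 1.41 and 3.29 RPKM in mycelium, 8.02, 4.36 and 13.3 RPKM in primordia, 30.1, 20.8 and 23.1 RPKM in young fruiting bodies, 22.8, 27.2 and 39.1 RPKM in caps and 7.57 and 8.97 RPKM in stipes. It was the 1 member called higher in primordium than in mycelium, by 2.36 ± 0.65 (SE) on the log2 scale with an edgeR adjusted p = 0.00939, and its levels formed 3 steps that did not overlap. Gene model 831600 had 2, 62 and 46 reads in mycelium, and averaged 3.52 ± 0.09 RPKM in primordia, 32.3 ± 14.0 in young fruiting bodies, 34.3 ± 5.84 in caps and 7.09 ± 2.58 in stipes. It was called higher in stipe than in mycelium, by 2.44 ± 0.75 on the log2 scale (SE; edgeR adjusted p = 0.0295), but did not pass in primordium, at 1.42 ± 0.69 (edgeR adjusted p = 0.108). In stipe, 765349 exceeded its mycelium level, by 1.40 ± 0.29 (edgeR adjusted p = 0.00353), while its log2 difference of 0.81 ± 0.26 in primordium was under 2-fold (edgeR adjusted p = 0.023).

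The median length of the members was 933 bases, against 1196 over the genes of the matrix, and the abundant members had a median of 753 bases and the others 1147. When genes of the matrix were ranked by length and divided into 3 equal bins, the shortest bin (up to 912 bases) held 75 members, the middle bin 54 and the longest bin (from 1554 bases) 27. The 31 genes of the reverse pattern had a median of 934 bases. Short length went with high level. RPKM divides reads by length, so at the same reads a shorter model has the higher level. The part of this in the link was not tested. The matrix held 456 genes at 8 or more on the log2 scale over young fruiting body and cap. In the shortest bin were 282 of these 456, and 4881 of the 15021 genes below that level. Members made up 65, or 14.3%, of the 456 and 91, or 0.606%, of the 15021. The rule chose members for high young fruiting body and cap values. A level over these groups, and the shares by it, are thus not independent of the rule. The abundant members had a median of 6.88 over primordium and stipe, against 9.55 over young fruiting body and cap. Among the abundant genes of the shortest bin 48 of 282, or 17.0%, were members, and among abundant genes of the other bins 17 of 174, or 9.77%. Below that level the shares were 0.553% in the shortest bin and 0.631% in the others.

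Length also moved with the primordium libraries over all genes. For young fruiting body against primordium, the median log2 difference of all genes was 0.75 in the shortest bin and 0.03 in the longest, and for cap against primordium 0.74 and 0.09. For cap against stipe it was -0.13 and -0.01, and for stipe against young fruiting body 0.17 and 0.06. For primordium against mycelium it was -0.71 in the shortest bin and 0.21 in the longest, and for stipe against mycelium 0.02 and 0.27. With each library's trend on length removed, the rule chose 129 genes, 98 of them among the 156. The members still chosen had a median length of 1074.5 bases and those no longer chosen 660.0. The part of length in the choice of the other members was not tested.

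**Figure D5:**
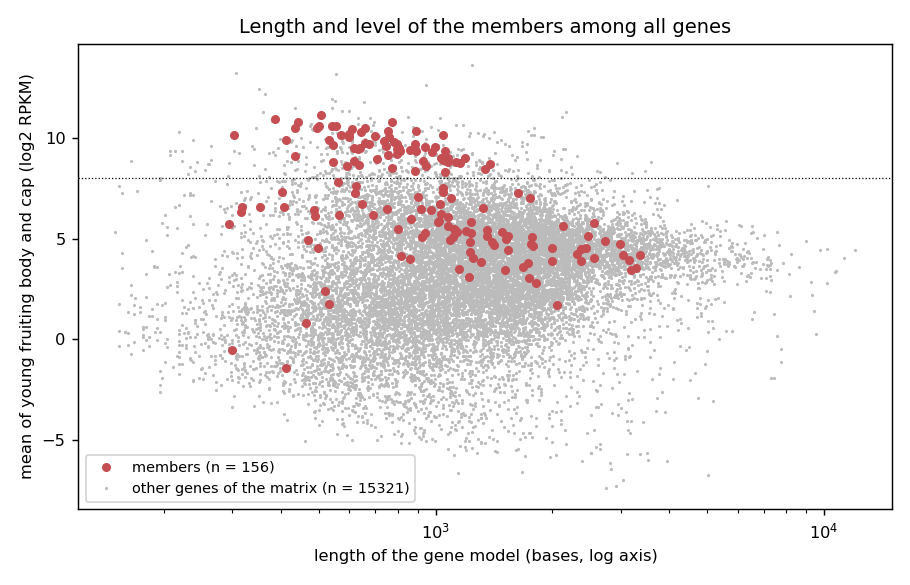
Mean of the young fruiting body and cap means in log2 RPKM against the length of the gene model in bases on a log axis, for the 156 members and the 15321 other genes of the matrix. Above the dotted line at 8 the members gather among short models, and below it they spread over longer ones. RPKM itself divides reads by length.

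Most members could be counted without doubt about their reads. All reads were unique to the gene in 129 of the 156, and 6 had under 95% of them unique. Gene model 720102 had 21.01% unique reads, so its level is uncertain: it averaged 507 ± 67.3 RPKM in mycelium, 340 ± 82.7 in primordia, 1008 ± 159 in young fruiting bodies, 1334 ± 182 in caps and 202 ± 6.43 in stipes (SD, n = 3 in each group and 2 in stipes). Gene model 264842, with 72.41% unique, had 0 to 15 reads in any library. At least 10 reads in every library were found for 144 members, and at least 1 library without a read for 5. With unique reads in place of total reads the rule chose 154 genes, 153 of them among the 156. With library size alone as the scaling it chose 150, of which 84 were among the 156, so the number stayed while the membership depended on the scaling.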

How the data were processed

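The authors deposited 1 table for each of the 14 libraries, with 17139 gene models. It holds total and unique read counts as whole numbers, RPKM and TPM, per the file headers, and TPM was not used. The deposited matrix of log2 values covered the 15477 genes that have 5 or more reads in 4 or more libraries. Recomputing log2 RPKM with TMM scaling and 0.5 reads added gave the same value, within 1e-06, for 100% of entries. RPKM printed for single libraries is 2 to the power of that value. Per the submitters' processing notes, limma 3.18.13 and edgeR 3.4.2 were run in R 3.0.2. Mapper and build: not given in the sources used here.

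Members were chosen on the matrix. Mycelium was compared with each field group with edgeR 4.0.16 (quasi-likelihood test, R 4.3.3) on total counts, using TMM, filterByExpr and 1 fit of all libraries with 9 residual degrees of freedom. The standard error is the log2 change divided by the square root of F. The test and the rule were tested on simulated data. DESeq2 1.42.0 and limma 3.58.1 (voom) were alternatives. Libraries held 13.6 to 54.6 units of 1e6 reads, and intervals and limits for a count of 0 cover counting error only.

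The members and lists were chosen with earlier results of these data known. Named genes were the 6 members with the highest level, the 6 with the largest gap, the 4 with the lowest and the 4 with the highest mycelium level relative to primordium and stipe, the 2 with the smallest p in each direction for primordium against mycelium, the 2 with the fewest unique reads, and the 2 nearest the gap threshold on each side. Gene model 568868 and the split by level were added after the values were seen.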

Additional observations from a re-analysis of the deposited data

How the results depend on the processing

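The count of 156 members became 379 with a gap of at least 1, 73 with a gap of at least 2 and 327 without the closeness conditions, all by construction. With each field library left out it ran from 107 to 205, and it was 220 without replicate 1 of the 4 field groups. DESeq2 size factors gave 145 genes, 132 of them members, and log2(RPKM + 1) gave 157, also with 132.

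Against mycelium, requiring 4-fold left 22 members called in primordium, 17 in young fruiting body, 19 in cap and 15 in stipe, fewer by construction. Shares of all genes called were counted only in the main fit. The counts under other settings, here and above, therefore describe the members alone and have no background beside them. With library size alone 47 were called in young fruiting body, and the cause was not tested. With each library left out the counts ran from 87 to 111 in primordium, 45 to 104 in young fruiting body, 39 to 63 in cap and 6 to 103 in stipe. With the length trend removed, chosen after seeing the data, 68 were called in primordium (65 lower, 3 higher) and 89 in stipe. Of 998 alternative values of named members, 888 had the same status as in the main fit, which includes those called in neither. A call was lost in 67 and gained in 43, and 0 changed sign with a call in either fit. These values include a 4-fold setting and one without a fold threshold. Both kept the log2 changes of the main fit, so no sign could change there.

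Replicate numbers are not said to pair samples. Deviations from the group mean in same-numbered libraries correlated at -0.301 (cap and stipe replicate 1) to 0.08 over the pairs of groups, with -0.12 for primordium and young fruiting body replicate 2. With the number as a replicate block, 106 members were called in primordium and 3 in stipe, where replicate 4 has no partner. Few reads limit the 12 members with under 10 reads in a library.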

Other observations

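Of the 220 genes chosen without replicate 1 libraries, 7 did not keep their direction there, and gene model 844407, named here after its values were seen, lay farthest from it, with a gap of -4.65 on the log2 scale in replicate 1. The length of this model is 564 bases.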
